A study of Mus musculus with 8 samples.

Results

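The genes described here are 10 that act when blood progenitors turn towards the lymphoid lineages and when antigen receptor genes are assembled: Rag1, Rag2, Dntt, Il7r, Il2rg, Ebf1, Ikzf1, Satb1, Tcf3 and Notch1. They were taken by name from a fixed list, made with earlier results of these data known. All 10 were found among the 48709 gene identifiers of the count tables. The libraries came from hematopoietic stem and progenitor cells (HSPCs) of C57Bl/6J mice, sorted as lineage-negative cells that carry Sca1 and cKit, with 10000 cells seeded per well. Both groups grew for 7 days in a serum-free expansion medium with 100 ng/ml stem cell factor, 2 ng/ml Flt3 ligand and antibiotics, and part of the medium was renewed midway. The malonyl-CoA group also received 100 µM malonyl-CoA, a building block of fatty acids, and the control group did not. The sources used here do not state the age or sex of the mice, the number of animals behind a library or any genotype beyond the strain. No IL-7, stromal cells or Notch ligand is listed among the culture components, which limits these cultures as a model of lymphoid development. Each group held 4 libraries, numbered 1, 3, 4 and 5. They are called biological replicates, without saying whether a number stands for an animal, a pool or a culture day, so p-values measure the spread between these samples, which may be technical. The study's title ties the treatment to lymphoid reconstitution, and the comparison shows how lymphoid genes stood in the cultured progeny.

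As background, V(D)J recombination cuts and rejoins gene segments to build the antigen receptors of B and T cells. The recombinase made of Rag1 and Rag2 cuts at signal sequences beside the segments, terminal deoxynucleotidyl transferase (Dntt) adds nucleotides without a template at the joints, and general DNA repair factors close them. Progenitors that begin to transcribe Rag1, Dntt and Il7r at low level are called lymphoid-primed. The E protein Tcf3, the zinc finger factor Ikzf1 and the chromatin organiser Satb1 act in the early lymphoid programme. Ebf1 later directs its B lineage side, and Notch1 signalling directs its T lineage side.

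Counts assigned to genes ranged from 17492085 to 22079844 per library. The libraries were not alike within groups. A principal component analysis put malonyl-CoA 4 (63.3) and control 4 (25.3) apart from the other 6 libraries (0.4 or below) along its leading axis, with 48.9% of the variance. In control 5, GC-rich transcripts were low relative to their mean over libraries (Spearman's rho -0.74 across genes, which are not independent replicates), and in malonyl-CoA 1 they were high (rho 0.52). Values are also given, for many of the genes and lists, without control 5 and malonyl-CoA 4, without both libraries numbered 4, and after a correction for GC content and transcript length. Progenitor markers were present, with Kit at 270 ± 36.7 CPM (counts scaled to a common library size, with TMM factors) in control and at 244 ± 51.9 in the treated group (SD, n = 4 each), and Flt3, named after its values were seen, at 164 to 217 CPM over the 8 libraries. So were transcripts of the myeloid lineage, with the primary granule gene Mpo at 9390 ± 2420 and 9170 ± 1470 CPM (SD, n = 4 each). The libraries describe bulk cultures at day 7 and not the sorted cells.

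None of the 10 genes passed edgeR's quasi-likelihood test at an adjusted p under 0.05, and the same test called 0% of the 12696 genes kept. The lowest fold changes of the set were on the recombination side: Rag2, Dntt and Rag1 were lower with malonyl-CoA, with log2 fold changes of -0.80, -0.35 and -0.47. Il2rg was higher by 0.71 on the same scale, and the other tested genes had intervals that included 0. Ebf1 had too few reads to be tested, so 9 of the 10 genes passed the filter on low counts, 3 higher and 6 lower with malonyl-CoA. Their median log2 fold change was -0.091, beside 0.023 over all genes tested, of which 53.4% were higher. At an unadjusted edgeR p under 0.05 stood 3 of the 9 lower and 1 higher, where the same rule picked 4.1% of all tested genes lower, 5.43% higher and 9.53% in either direction. In 2 of the 9, Rag2 and Dntt, all malonyl-CoA libraries lay below all controls, a pattern found in 2.93% of all tested genes, and in 6.14% with either direction counted. After the GC and length correction 4 of the 9 did not overlap (Il2rg higher, Rag2, Dntt and Notch1 lower), against 6.56% of all genes. Without control 3 there were 5 (9% of all genes), without malonyl-CoA 4 or without control 5 and malonyl-CoA 4 there were 4 (11.1% and 15.4%), and without both libraries numbered 4 there were 5 (26.2%). Rag2 and Dntt were among them each time. Rag1, Rag2 and Dntt varied together across the libraries (Pearson's r of 0.85 to 0.91), so these counts are not independent. DESeq2 gave Rag2 alone of the 10 an adjusted p under the threshold, in a run that called 0.591% of 13871 genes, and limma-voom gave 0 of them. In bulk RNA, fewer cells of a type and less RNA per cell cannot be told apart.

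**Figure D1:**
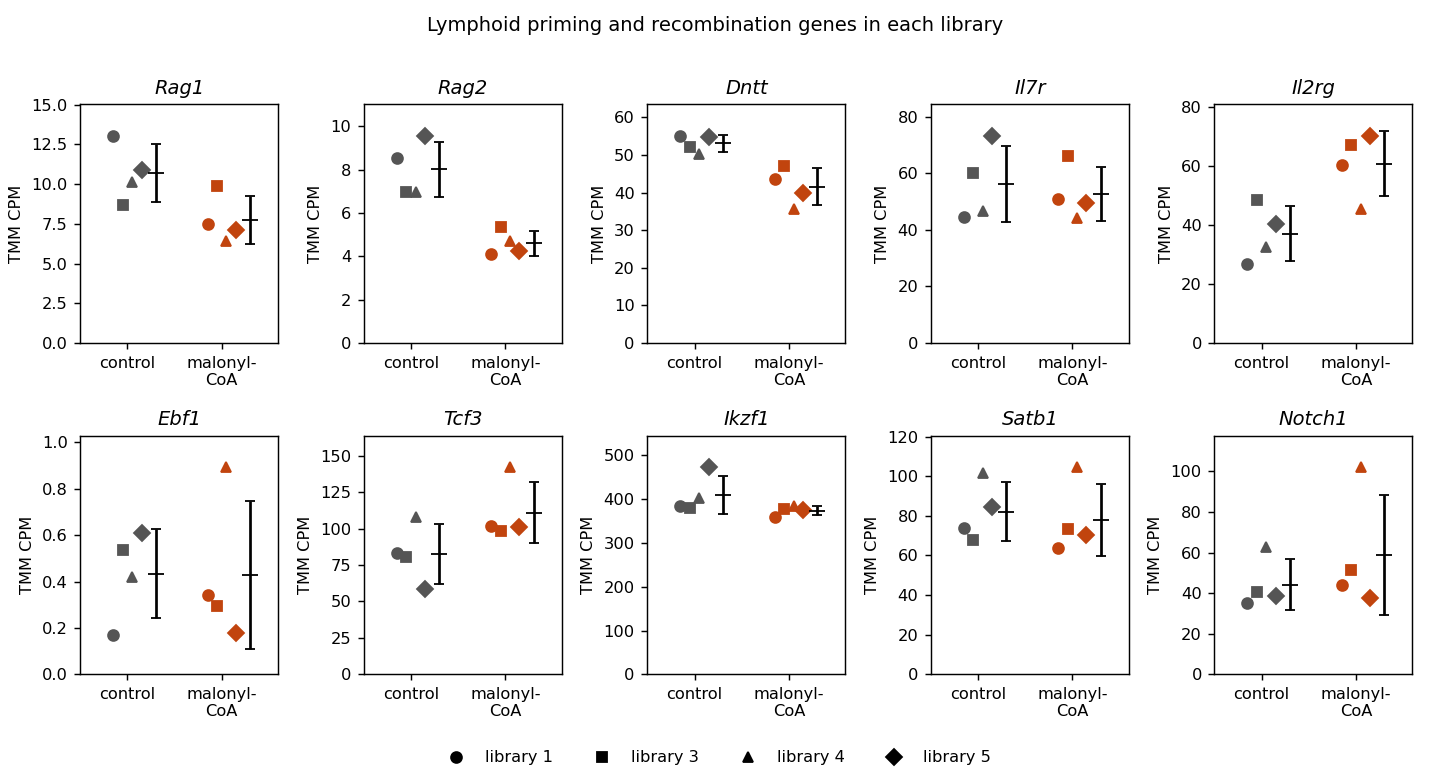
Level of each of the 10 genes in every library, as CPM with TMM factors on linear axes from 0. Grey points are control and orange points malonyl-CoA libraries, with a symbol for each library number, and the black bar is the group mean with its SD (n = 4). The groups are apart for Rag2 and Dntt and overlap for the other 8 genes.

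Rag2 had the smallest p of the set. The gene (ENSMUSG00000032864, GRCm38 chromosome 2, 101624718 to 101632529, plus strand) encodes the regulatory subunit of the recombinase. Its level was 8.56, 6.99, 6.99 and 9.58 CPM in controls 1, 3, 4 and 5, and 4.09, 5.37, 4.69 and 4.26 CPM in malonyl-CoA 1, 3, 4 and 5. Every malonyl-CoA library was therefore below every control, and the nearest values were those of malonyl-CoA 3 and controls 3 and 4. Group means were 8.03 ± 1.27 and 4.60 ± 0.573 CPM (SD, n = 4 each), a ratio of 0.574 in the fit. The log2 fold change was -0.80 (SE 0.174, 95% interval -1.19 to -0.41, edgeR unadjusted p = 0.00106, adjusted p = 0.352), the 34th smallest p of all genes tested. DESeq2 gave it an adjusted p of 0.0237 and limma-voom one of 0.356. These levels rest on 72 to 204 reads per library.

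Rag1, the subunit that holds the active site of the recombinase, lies beside Rag2 on the opposite strand (ENSMUSG00000061311, chromosome 2, 101638282 to 101649501). It stood at 13.1, 8.71, 10.1 and 10.9 CPM in controls 1, 3, 4 and 5. The malonyl-CoA libraries 1, 3, 4 and 5 gave 7.5, 9.87, 6.43 and 7.09 CPM. All but malonyl-CoA 3 lay under the lowest control, and malonyl-CoA 3 lay above control 3, so the groups overlapped. The means were 10.7 ± 1.82 and 7.72 ± 1.5 CPM (SD, n = 4 each), a log2 fold change of -0.47 (SE 0.187, 95% interval -0.886 to -0.0492, edgeR adjusted p = 0.507). Per kilobase of exon, Rag2 stood above Rag1 in all 8 libraries, by ratios of 1.26, 1.55, 1.33 and 1.7 in controls 1, 3, 4 and 5 and of 1.05, 1.05, 1.41 and 1.16 in malonyl-CoA 1, 3, 4 and 5. These ratios overlapped between the groups.

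Counts of both Rag genes carry a limit of annotation. The gene B230118H07Rik spans the locus and shares 80 exon bases with Rag1 on the same strand and 208 with Rag2 on the opposite strand. It had 649 to 1300 reads per library, more than either Rag gene, with group means of 50.5 ± 7.64 and 40.6 ± 8.15 CPM (SD, n = 4 each), a difference of -0.32 on the log2 scale (SE 0.175, edgeR adjusted p = 0.519). The sources used here do not give the strand setting of the counter, and the part of this gene in the Rag values was not tested.

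Dntt, whose enzyme gives the joints of antigen receptor genes their added nucleotides (ENSMUSG00000025014, chromosome 19, 41029275 to 41059525, plus strand), was the steadiest of these genes among controls. Its control levels were 55.2, 52.2, 50.4 and 54.8 CPM in libraries 1, 3, 4 and 5, a coefficient of variation of 4.28%. With malonyl-CoA the same numbers gave 43.7, 47.1, 35.7 and 39.9 CPM. All 4 lay below the lowest control, and the spread was wider, at 11.8%. The means of 53.1 ± 2.27 and 41.6 ± 4.9 CPM (SD, n = 4 each) corresponded to a log2 fold change of -0.35 (SE 0.119, 95% interval -0.619 to -0.0882, edgeR adjusted p = 0.467). Rag1, Rag2 and Dntt kept their sign in each of the 20 alternative fits, with log2 fold changes of -0.608 to -0.359, -0.882 to -0.607 and -0.418 to -0.271.

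The stretch before the start of a gene holds part of the sequence through which lineage factors can act on it. It is shown for the 4 genes with an unadjusted p under 0.05, so that the recombination genes can be read beside Il2rg, which differed in the other direction. The lines give the 250 bases before the RefSeq start (GRCm38.p6), 5′ to 3′ on the strand of the gene, at chr2:101649533-101649782 (minus strand) for Rag1, chr2:101624462-101624711 (plus strand) for Rag2, chr19:41029025-41029274 (plus strand) for Dntt and chrX:101268256-101268505 (minus strand) for Il2rg. Capitals mark each E-box of the form CANNTG, the letters that E proteins such as Tcf3 bind.
Rag1: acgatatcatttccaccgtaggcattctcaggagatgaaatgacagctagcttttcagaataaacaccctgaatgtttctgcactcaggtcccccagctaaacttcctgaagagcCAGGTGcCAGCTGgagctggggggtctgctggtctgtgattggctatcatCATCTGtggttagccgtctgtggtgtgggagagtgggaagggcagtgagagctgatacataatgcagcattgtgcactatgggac
Rag2: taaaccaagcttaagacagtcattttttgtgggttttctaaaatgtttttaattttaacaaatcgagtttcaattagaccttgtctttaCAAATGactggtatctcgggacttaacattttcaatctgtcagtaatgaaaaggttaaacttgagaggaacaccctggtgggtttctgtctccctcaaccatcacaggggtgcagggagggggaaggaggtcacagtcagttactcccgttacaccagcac
Dntt: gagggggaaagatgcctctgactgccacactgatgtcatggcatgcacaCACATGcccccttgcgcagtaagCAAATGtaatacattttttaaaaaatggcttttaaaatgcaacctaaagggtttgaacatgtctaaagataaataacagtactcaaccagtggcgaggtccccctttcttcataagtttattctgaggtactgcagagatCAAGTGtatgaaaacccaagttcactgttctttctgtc
Il2rg: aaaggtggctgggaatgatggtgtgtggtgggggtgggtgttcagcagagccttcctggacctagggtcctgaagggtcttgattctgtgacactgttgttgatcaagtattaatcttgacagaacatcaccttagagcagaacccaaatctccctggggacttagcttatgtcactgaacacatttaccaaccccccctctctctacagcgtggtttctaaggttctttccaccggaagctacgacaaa

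Rag1 held 3 E-boxes, and all 3 also fit CAGNTG on one strand or the other, the nearest at -85 counted back from the start. The Dntt stretch held 3 as well, the nearest at -38, with none of the CAGNTG form, while Rag2 held 1, at -161, and Il2rg 0. The core GGGAA, which Ikaros proteins bind, occurred once in each of the 4. The longer form TGGGAA, which contains it and is also the letters bound by RBPJ, the partner of Notch1, occurred in Rag1 at -52 and in Il2rg at -241. The Runx letters TGTGGT were found 2 times in Rag1 and 1 time in Il2rg, the EBF form CCCNNGGG in Il2rg at -98, and TATAAA in none of the 4. Searched on both strands in 32851 RefSeq promoter stretches of the same length, these motifs were common: 66.2% held CANNTG, 44.8% CAGNTG, 56.2% GGGAA, 21.6% TGGGAA, 11.8% CCCNNGGG, 14% TGTGGT and 12.4% TATAAA. The 10 genes have 16 such stretches, of which 8 held CANNTG, 3 CAGNTG, 12 GGGAA, 4 TGGGAA, 2 CCCNNGGG, 3 TGTGGT and 0 TATAAA. Matches of this kind describe letters and not bound sites, and sequence outside these stretches was not searched.

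The cytokine receptor genes parted from each other. Il2rg (ENSMUSG00000031304, chromosome X, 101264378 to 101268255, minus strand) encodes the common gamma chain, a shared subunit of the receptors for IL-7 and several other cytokines. It was at 26.9, 48.5, 32.6 and 40.4 CPM in controls 1, 3, 4 and 5 and at 60.3, 67.3, 45.5 and 70.4 CPM in malonyl-CoA 1, 3, 4 and 5. Only the pair of control 3 and malonyl-CoA 4 crossed, and the other 3 malonyl-CoA libraries lay above all controls. Mean levels were 37.1 ± 9.41 and 60.9 ± 11.1 CPM (SD, n = 4 each), a log2 fold change of 0.71 (SE 0.204, 95% interval 0.258 to 1.17, edgeR adjusted p = 0.391). It was positive in each of the 20 alternatives, at 0.588 to 0.873. Another gene model, Gm20489, shares 728 exon bases with Il2rg on the same strand and was counted at 0 reads in all libraries. Reads in the shared bases may have been kept out as ambiguous, which was not tested.

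Il7r, the chain that gives the IL-7 receptor its specificity and marks lymphoid progenitors (ENSMUSG00000003882, chromosome 15, 9505788 to 9530176, minus strand), did not separate the groups. Controls 1, 3, 4 and 5 had 44.4, 60.2, 46.6 and 73.4 CPM, and malonyl-CoA 1, 3, 4 and 5 had 50.9, 66.3, 44.2 and 49.6 CPM. The highest library, control 5, and the lowest, malonyl-CoA 4, are those that stood apart in other respects. The log2 fold change was -0.09 (SE 0.19, 95% interval -0.516 to 0.333, edgeR adjusted p = 0.839), and it turned to 0.0644 without control 5, 0.141 without control 5 and malonyl-CoA 4 and 0.0652 after the GC and length correction.

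Around these receptors, a list of 13 genes for other receptor chains of the same family and their signalling had 12 tested, of which 10 were higher and 2 lower, with a median of 0.2 and 0 called over all genes. After the GC and length correction 7 were higher and 5 lower, with a median of 0.066. The groups did not overlap in 3, all higher, where 3.21% of all tested genes were. Il4ra, the interleukin 4 receptor chain that pairs with the common gamma chain, had 55.4, 62.7, 57.3 and 36.3 CPM in controls 1, 3, 4 and 5 and 84.3, 86.8, 76.3 and 74 CPM with malonyl-CoA (log2 fold change 0.60, SE 0.166, edgeR adjusted p = 0.379). Jak3, the kinase bound to the common gamma chain, averaged 45.6 ± 12.2 and 68.3 ± 4.78 CPM (SD, n = 4 each; log2 fold change 0.58, edgeR adjusted p = 0.446). Il15ra averaged 7.33 ± 0.584 and 9.13 ± 0.994 CPM (SD, n = 4 each; 0.32 on the log2 scale, edgeR adjusted p = 0.515). The values of Il4ra and Jak3 were smaller after the GC and length correction, at 0.31 and 0.13. Bcl2, a survival gene downstream of IL-7, had a log2 fold change of -0.26 (SE 0.145, edgeR adjusted p = 0.521).

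Among the transcription factors of the set, Ebf1 was barely detected. Ebf1 (ENSMUSG00000057098, chromosome 11, 44617317 to 45008091, plus strand), which commits progenitors to the B lineage, had 3, 10, 9 and 13 reads in controls 1, 3, 4 and 5 and 7, 6, 20 and 3 reads in malonyl-CoA 1, 3, 4 and 5. That is 0.435 ± 0.193 and 0.426 ± 0.319 CPM (SD, n = 4 each), so a difference of moderate size was not detectable at this depth. In a list of 15 committed B lineage genes, Pax5, named here after its values were seen, had at most 1 read in any library. The most abundant genes of that list were not at the floor. Rhoh averaged 39.6 ± 5.41 and 33.5 ± 5.4 CPM, Cd79b 20.5 ± 1.04 and 20.7 ± 3.16, and Cd72 14.7 ± 4.06 and 15.1 ± 4.84 (SD, n = 4 each).

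Tcf3 (ENSMUSG00000020167, chromosome 10, 80409514 to 80433647, minus strand), which encodes the E2A proteins, had 83.3, 80.4, 108 and 58.5 CPM in controls 1, 3, 4 and 5. With malonyl-CoA the libraries 1, 3, 4 and 5 gave 102, 98.4, 142 and 101 CPM. Apart from control 4, the controls lay below all malonyl-CoA libraries, and malonyl-CoA 4 stood far above the other 3. The log2 fold change was 0.42 (SE 0.195, 95% interval -0.0105 to 0.86, edgeR adjusted p = 0.515). Its transcript is GC-rich, at 61.0% against 40.5% for Rag2 and Il7r, and the value was 0.0256 after the GC and length correction and 0.146 without control 5 and malonyl-CoA 4. Leaving out malonyl-CoA 4 alone gave 0.27.

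Ikzf1 (ENSMUSG00000018654, chromosome 11, 11685003 to 11772926, plus strand), the Ikaros gene needed for all lymphoid lineages, was the most abundant of the 10. It had 384, 379, 402 and 473 CPM in controls 1, 3, 4 and 5 and 359, 378, 384 and 374 CPM in malonyl-CoA 1, 3, 4 and 5. Control 5 was high and the malonyl-CoA libraries were close together, with a coefficient of variation of 2.9% against 10.6%. The log2 fold change was -0.13 (SE 0.106, 95% interval -0.369 to 0.104, edgeR adjusted p = 0.593), and -0.0566 without control 5.

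Satb1 and Notch1 were highest in the libraries numbered 4 of both groups. Satb1, the chromatin organiser of lymphoid cells (ENSMUSG00000023927, chromosome 17, 51736187 to 51833290, minus strand) had 73.9, 67.8, 102 and 84.2 CPM in controls 1, 3, 4 and 5 and 63.9, 73.2, 105 and 70.4 CPM in malonyl-CoA 1, 3, 4 and 5. Its log2 fold change was -0.07 (SE 0.183, 95% interval -0.48 to 0.339, edgeR adjusted p = 0.873), ranging from -0.253 without malonyl-CoA 4 to 0.0521 without control 4. It was 0.0131 without malonyl-CoA 1, -0.233 without control 5 and malonyl-CoA 4 and -0.251 with the GC and length correction (edgeR unadjusted p = 0.049, adjusted p = 0.52). Notch1 (ENSMUSG00000026923, chromosome 2, 26457903 to 26516663, minus strand), the receptor that starts the T lineage, had 35.2, 40.3, 62.9 and 38.5 CPM in controls and 44.2, 51.3, 102 and 37.5 CPM with malonyl-CoA, in the same order. The groups overlapped in both genes, and in Notch1 malonyl-CoA 5 lay below 3 of the controls. The log2 fold change of Notch1 was 0.41 (SE 0.319, 95% interval -0.306 to 1.13, edgeR adjusted p = 0.588). It was -0.00604 without malonyl-CoA 4, 0.632 without control 4, 0.217 without both and -0.228 after the GC and length correction.

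**Figure D2:**
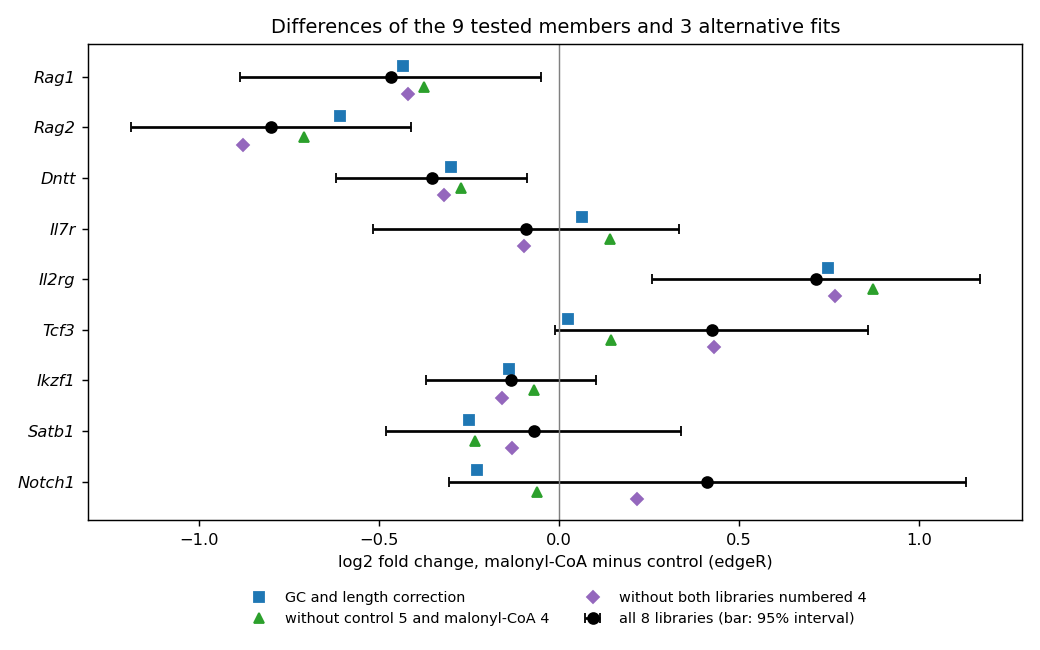
Log2 fold change of the 9 tested genes, malonyl-CoA minus control, from edgeR, with 95% intervals for the fit on all 8 libraries and points for 3 alternatives. Rag1, Rag2 and Dntt stay below 0 and Il2rg above 0 in all 4 fits drawn, while Il7r and Notch1 have points on both sides of 0 and Tcf3 moves from 0.42 to 0.0256 with the GC and length correction.

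Levels were compared between genes per kilobase of exon. The length is the union of all annotated exons of a gene, 19027 bases for Satb1 and 14232 for Notch1. Such a union can be longer than the transcripts present, which lowers the value. Before division by length, Satb1 and Tcf3 were close in control, at 81.9 and 82.6 CPM. In control libraries Ikzf1 stood highest, at 70.9 ± 7.51 CPM per kilobase, followed by Dntt at 23.2 ± 0.991, Tcf3 at 20.5 ± 5.04, Il2rg at 15.5 ± 3.94 and Il7r at 12 ± 2.88 (SD, n = 4 each). Satb1 at 4.31 ± 0.782, Notch1 at 3.11 ± 0.889, Rag2 at 2.34 ± 0.371 and Rag1 at 1.62 ± 0.275 formed a lower group, and Ebf1 was last at 0.0445 ± 0.0197 (SD, n = 4 each). The differences within the pairs Dntt and Tcf3, Tcf3 and Il2rg, Il2rg and Il7r, Satb1 and Notch1, and Notch1 and Rag2 were smaller than the sum of their SDs. With malonyl-CoA, Tcf3 at 27.4 ± 5.19 and Il2rg at 25.5 ± 4.65 stood above Dntt at 18.1 ± 2.14 (SD, n = 4 each).

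**Figure D3:**
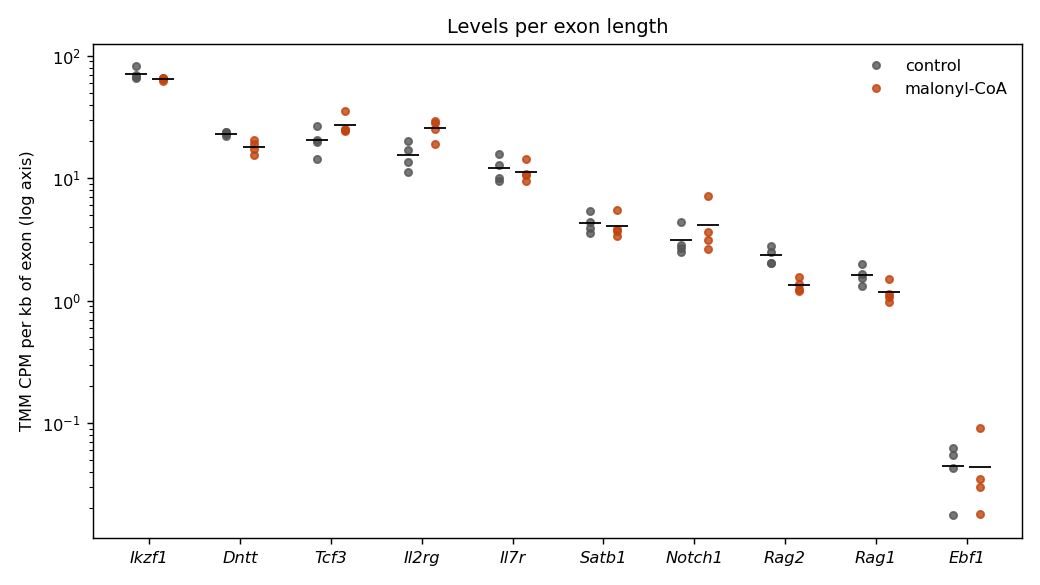
Level of each gene per kilobase of exon in each library, on a log axis, ordered by the control mean. Grey points are control and orange points malonyl-CoA libraries, and black dashes are group means. Ikzf1 is at the top, Ebf1 far below the rest, and Dntt is well above Rag1 and Rag2.

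Across the 8 libraries the recombination genes varied together as a description: Pearson's r of log2 CPM was 0.85 between Rag1 and Rag2, 0.91 between Rag1 and Dntt and 0.87 between Rag2 and Dntt. Between Tcf3 and the recombination genes it was -0.65 for Rag1, -0.74 for Rag2 and -0.81 for Dntt, and Tcf3 and Satb1 each reached 0.77 with Notch1. These points share libraries, depth, base composition and the group difference itself. Over 11186 named genes with a mean of at least 1 CPM, the patterns most like Rag2 were those of Mpp7 (r = 0.975), Tspan2 (0.97) and Tbc1d15 (0.97). Closest to Rag1 were Paqr8 (0.945), Ncoa4 (0.915) and Vkorc1l1 (0.912), and closest to Dntt were Blmh (0.963), Sdc2 (0.96) and Paip2b (0.955). The genes most like Il2rg were Oasl2 (0.988) and Pvr (0.988), followed by the Fc receptor gene Fcgr1 (0.971), over the same 8 libraries.

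The other factors of recombination and repair did not separate the groups. Of 13 genes for DNA end joining and RAG cofactors, all were tested, 7 were higher and 6 lower, the median was 0.015, 0 were called by edgeR, 0 had an unadjusted p under 0.05, and in 0 of them were the groups without overlap. Hmgb2, a chromatin protein that helps the recombinase bend DNA, had 42.1, 37.9, 52.8 and 74 CPM in controls 1, 3, 4 and 5 and 36.7, 34.5, 44.3 and 41.9 CPM with malonyl-CoA (log2 fold change -0.39, SE 0.206, edgeR adjusted p = 0.515). The Ku subunit gene Xrcc5 was at -0.26 (SE 0.169), the ligase partner Xrcc4 at -0.31 (SE 0.225) and the damage kinase gene Atm at 0.30 (SE 0.224), with edgeR adjusted p-values of 0.543, 0.57 and 0.579. With the GC and length correction Hmgb2 was at -0.15, Xrcc5 at -0.14 and Xrcc4 at -0.16. Leaving out control 5 and malonyl-CoA 4 turned Xrcc4 to 0.02, brought Atm to 0.09 and gave 5 of the list higher and 8 lower, with a median of -0.065.

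Partners of the transcription factors mostly had values above 0, and none passed the test. All 5 tested genes of the E protein and Id list were higher, with a median of 0.2. The GC and length correction left 3 higher, with Tcf12 at -0.10 and Tcf4 at -0.09, and a median of 0.09, and without control 5 and malonyl-CoA 4 the median was 0.095. Id1, an inhibitor that blocks E proteins from binding DNA, averaged 7.8 ± 1.53 and 9.91 ± 1.1 CPM (SD, n = 4 each), or 0.35 on the log2 scale (SE 0.177, edgeR adjusted p = 0.515), and Lyl1, a related factor, was at 0.36 (SE 0.206), or 0.09 with the correction and 0.04 without control 5 and malonyl-CoA 4. Id2 was at 0.20 (SE 0.271) and the E protein gene Tcf12 at 0.03 (SE 0.131). In the list of the Ikaros family and its chromatin partners 8 of 10 tested genes were higher, with a median of 0.21 that was 0.032 without control 5 and malonyl-CoA 4 (5 higher and 5 lower), 0.053 without both libraries numbered 4 and 0.09 with the GC and length correction. Chd4, the remodeller that Ikaros recruits, differed widely between libraries of 1 group, with 92.4, 153, 371 and 210 CPM in controls 1, 3, 4 and 5 and 234, 267, 607 and 184 CPM in malonyl-CoA 1, 3, 4 and 5. Its relative Chd3 spanned 8.84 to 96.2 CPM, highest in malonyl-CoA 4. Mbd3 was at 0.42 (SE 0.212) and Hdac2 at -0.27 (SE 0.149), against 0.13 and -0.13 with the correction.

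In the Notch list 17 of 20 genes were tested, 10 higher and 7 lower with a median of 0.064. The median was -0.038 with the GC and length correction (7 higher and 10 lower) and -0.022 without control 5 and malonyl-CoA 4. The ligand gene Jag2 averaged 1.47 ± 0.275 and 2.31 ± 0.675 CPM (SD, n = 4 each; log2 fold change 0.66, edgeR adjusted p = 0.507), and Jag1 2.81 ± 0.691 and 3.86 ± 0.393 CPM. The GC and length correction brought Jag2 to 0.06. Notch2, the other receptor of progenitors, was at 0.46 (SE 0.255), and at 0.10 with the correction. Adam10, the protease that starts Notch cleavage, had 293, 292, 315 and 348 CPM in controls 1, 3, 4 and 5 and 278, 287, 289 and 270 CPM with malonyl-CoA, the single member of the 17 without overlap (log2 fold change -0.15, SE 0.0992, edgeR adjusted p = 0.545). That share is near the 6.14% of all tested genes, and Adam10 was at -0.04 with the correction. The target genes Hes1 and Nrarp, named after their values were seen, were at -0.07 (SE 0.246) and -0.23 (SE 0.198), and Hes1 was at 0.10 without control 5 and malonyl-CoA 4.

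Of the lymphoid priming factors other than the 10 genes, 7 of 17 tested were higher and 10 lower, with a median of -0.013 and 0 called by edgeR. With the GC and length correction 5 were higher and 12 lower, with a median of -0.13. Spi1, the PU.1 gene whose level helps to set myeloid against lymphoid fate, was the clearest. It had 155, 163, 150 and 135 CPM in controls 1, 3, 4 and 5 and 208, 198, 207 and 202 CPM with malonyl-CoA, with every treated library above every control (log2 fold change 0.43, SE 0.0983, edgeR unadjusted p = 0.00137, adjusted p = 0.352). Correcting for GC content and length brought it to 0.18. The chemokine receptor gene Ccr7 was at 0.98 (SE 0.402) and Bcl11a at 0.21 (SE 0.119), or 0.10 with the correction.

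**Figure D4:**
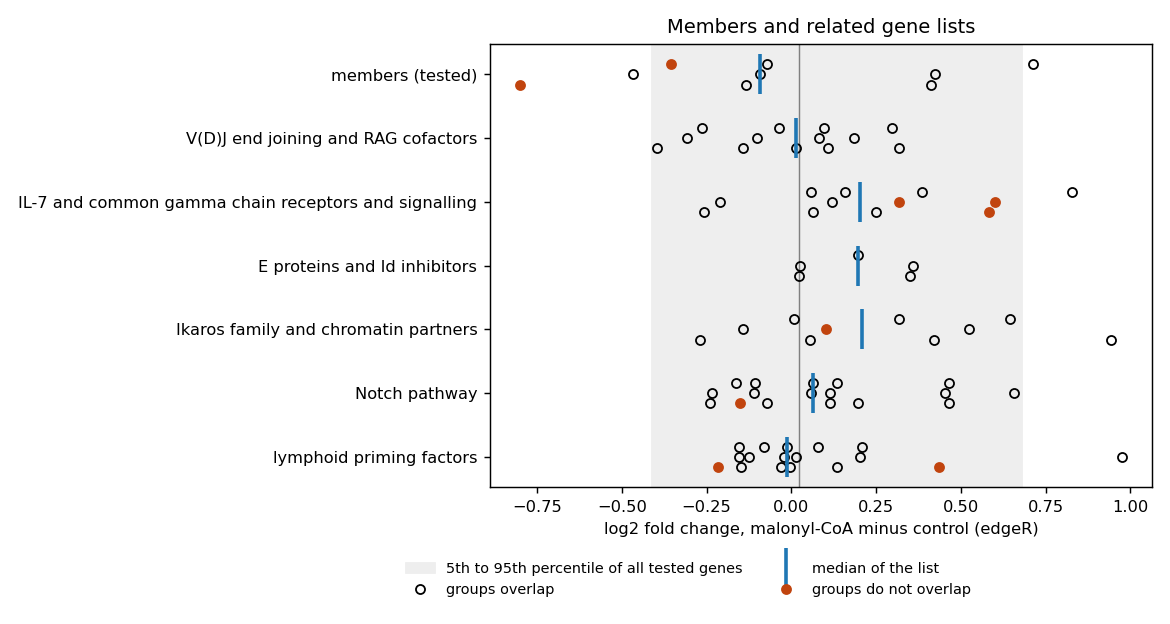
Log2 fold change of each tested gene in the set and in 6 related lists, with filled points where the libraries of the groups do not overlap and a blue dash at each list median. The grey band runs from the 5th to the 95th percentile of all tested genes, -0.41 to 0.68. Rag2 and Rag1 lie below the band and Il2rg above it, and most other genes lie within it.

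Markers of cell types that could carry these transcripts were summed per library. Committed B lineage genes summed to 84.6 to 107 CPM in control and 70.3 to 103 with malonyl-CoA, with 4 of 8 tested members higher, 7 of 15 under 1 CPM everywhere and Pou2af1 at 0. T lineage genes summed to 18.4 to 23.8 and 18.9 to 28.4 CPM, with 6 of 7 higher and Cd3e at 0 in all libraries. These 2 sets of sums overlapped between the groups and were the smallest of the marker lists. The most abundant genes were Rhoh, Cd79b and Cd72 in the B list and Lck, Tcf7 and Thy1 in the T list. Thy1 averaged 2.72 ± 0.25 and 3.83 ± 0.787 CPM (SD, n = 4 each). Every malonyl-CoA library lay above every control for Thy1, a pattern found in 3.21% of all tested genes. Plasmacytoid dendritic cells, which are known to carry Rag and Dntt transcripts, had marker sums of 875 to 1090 and 970 to 1170 CPM, with 9 of 13 members higher, and Siglech, a defining marker named after its values were seen, was at 82.4 to 145 CPM in control and 90.3 to 128 with malonyl-CoA. Sums that lay lower in all malonyl-CoA libraries were those of NK and innate lymphoid genes (299 to 389 and 220 to 297 CPM, 5 of 7 lower), mast cell and basophil genes (992 to 1190 and 835 to 964 CPM, 7 of 10 lower) and stem and progenitor genes (1310 to 1460 and 1180 to 1230 CPM, 7 of 12 lower). The median log2 fold change of the last list was -0.031, and the lower sum came mostly from Cd34, its most abundant gene. Cd34 was at 598 ± 41.4 and 454 ± 20.1 CPM (SD, n = 4 each). Ly6a, which encodes the Sca1 used in the sort, was at 42.2 ± 21.1 and 81.3 ± 37.2 and Procr at 2.66 ± 2.71 and 5.89 ± 3.94, with overlap. Hlf, of the same list, was at 12.3 ± 1.62 and 8.39 ± 0.475 CPM (SD, n = 4 each; log2 fold change -0.55, edgeR adjusted p = 0.352). It was at -0.53 with the GC and length correction. The groups did not overlap in 2 of the 12 genes, Cd34 and Hlf, both lower, where 2.93% of all tested genes were. Ly6a, Procr and Hlf are named after their values were seen. The NK sum came mostly from Nkg7, at 219 ± 37.7 and 150 ± 28.6 CPM, and Klrd1, at 64.7 ± 24.6 and 41 ± 13.5, and 5 of its 12 genes were under 1 CPM in all libraries, among them the defining marker Ncr1 with at most 4 reads. Sums of monocyte and macrophage genes (3500 to 5050 and 3860 to 4950 CPM, 9 of 11 higher), granulocyte genes (13800 to 21700 and 13900 to 17800 CPM, 13 of 14 lower) and erythroid and megakaryocyte genes (694 to 845 and 576 to 830 CPM, 6 of 10 lower) overlapped. The first 2 sums came mostly from a few abundant genes, among them Lyz2 and Mpo. At an unadjusted edgeR p under 0.05 stood 3 of the 11 monocyte and macrophage genes, all higher, where 5.43% of all tested genes were. By the same rule 5 of the 14 granulocyte and 2 of the 10 erythroid and megakaryocyte genes were lower. So were 4 of the 10 mast cell and basophil, 2 of the 12 stem and progenitor and 1 of the 7 NK genes. Over all tested genes 4.1% were. In 4 of the 10 mast cell and basophil genes the groups did not overlap, all lower, against 2.93% of all tested genes. With the GC and length correction the median of this list went from -0.24 to -0.16 and that of the NK list from -0.31 to -0.26. Cpa3 went from -0.43 to -0.17 and Klrd1 from -0.66 to -0.26. The part of these cell types in the lower Rag2, Rag1 and Dntt and the higher Il2rg was not tested.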

How the data were processed

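Total RNA of 4 control and 4 malonyl-CoA cultures was sequenced from stranded libraries made with 350 ng input. The deposited files hold raw read counts for Ensembl genes. The submitters' processing notes name GRCm38 as the build, and the tools HTSeq 0.6.1, STAR 2.5.2b and cutadapt 1.8. No annotation release is given in the sources used here. Reads in no gene (1.11% to 2.94%), ambiguous (0.715% to 0.891%) or with several positions (38.2% to 51.1%) were kept out of library sizes. Of 48709 identifiers 48349 matched GENCODE M21, which gave symbols, coordinates and exon lengths.

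Counts were tested with edgeR 4.0.16 in R 4.3.3: filterByExpr (minimum count 10, minimum total 15), TMM factors, robust glmQLFit with the edgeR 4 dispersion (legacy set to FALSE), two-sided glmQLFTest without covariates, and Benjamini-Hochberg adjustment over 12696 genes at 0.05. Positive fold changes mean higher with malonyl-CoA, and each SE was obtained by dividing the size of the log2 fold change by the root of its F statistic. Log2 CPM used a prior count of 2. DESeq2 1.42.0, limma-voom 3.58.1, other factors and filters, a replicate block, a loess correction for GC and length (span 0.5, genes above a mean log2 CPM of 2) and left-out libraries were alternatives. The edgeR test and the correction were checked on simulated counts. These had the same dispersion for all genes and no variation shared between libraries. A GC trend was put in a single library, with no length trend. The check therefore does not cover the patterns seen in the real libraries.

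The 10 genes and all lists were chosen with earlier results of these data known. The named genes are the 10, up to 4 genes with the smallest p of each pathway list, the 3 most abundant genes and those at 0 of each marker list, and the 3 genes most correlated with Rag1, Rag2, Dntt or Il2rg. Not all of them are described, and some results are not reported here. The lists covered end joining, IL-7 and common gamma chain signalling, Notch, E proteins, Ikaros partners, lymphoid priming and 9 cell types. Protein motifs were planned and not analysed here.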

Additional observations from a re-analysis of the deposited data

Results flagged for a closer look

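In 1 of the 20 sets of 4 libraries examined (10 genes in 2 groups), a library lay far from the rest: Tcf3 in malonyl-CoA 4, at 142 CPM, where the gap to the nearest library was 0.922 of the range of the group, above Dixon's 95% critical value for 4 samples. Chance flags about 1 in 20 such groups. The same library was the highest of its group for Satb1, Notch1, Chd3 and Chd4.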

How the results depend on the processing

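The 9 tested genes were refitted under 20 alternatives, the legacy edgeR dispersion having been added after seeing the data. Of 180 values, 169 kept their direction and side of the threshold, 1 passed it (Rag2 with DESeq2) and 10 changed sign. Rag1, Rag2, Dntt, Il2rg, Ikzf1 and Tcf3 kept their sign in every alternative. The sign changes were Il7r at 0.0652 with the GC and length correction, 0.0646 with that correction and the replicate block together, 0.0644 without control 5 and 0.141 without control 5 and malonyl-CoA 4, Notch1 at -0.228, -0.227, -0.00604 (without malonyl-CoA 4) and -0.0604 under the corresponding settings, and Satb1 at 0.0521 without control 4 and 0.0131 without malonyl-CoA 1. The cause was not tested. With 1 library left out, Il7r ranged from -0.22 to 0.0644, Notch1 from -0.00604 to 0.632 and Satb1 from -0.253 to 0.0521.

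Genes called over all genes numbered 0 in the reported fit, 1 with no low-count filter, 82 with DESeq2, 172 with the replicate block and 36 with the block and the GC and length correction, and 0 in each fit with 1 library left out. Tested members without overlap between groups numbered 2, and 4 after the GC and length correction, with or without the block (6.56% of all genes), 4 without control 5 and malonyl-CoA 4 (15.4%) and 5 without both libraries numbered 4 (26.2%). With 1 library left out they numbered 2 to 5, the most without control 3 (9% of all genes). Fewer libraries make separation easier. The replicate numbers are not said to pair the libraries: deviations correlated at 0.435, 0.428 and 0.754 for numbers 1, 3 and 4 but 0.0523 for number 5, and control 5 correlated best with malonyl-CoA 3. With the block Rag2 had an adjusted p of 0.0641, Il2rg 0.0549, Tcf3 0.0726 and Dntt 0.0865, and 0 of the 9 were called, against 1.35% of all genes. Depth limits Ebf1 most.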
